A study of Mus musculus with 4 samples.

Results

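The miR-183, miR-96, miR-182 cluster was examined in basal and luminal cells sorted from the mouse prostate. Its members were taken by name, as all arms with the stem miR-183, miR-96 or miR-182, and 4 of the 816 listed miRNAs met that rule. These were miR-183-5p, miR-183-3p, miR-96-5p and miR-182-5p, and each of them had reads in all 4 libraries. The libraries held small RNA reads from total RNA of prostate cells of 10-week-old male mice, wild-type and of the C57Bl/6 strain, and the labels name no treatment or further allele in either group. The gland was digested with collagenase and trypsin. Both groups were taken by flow sorting as positive for Sca-1 and negative for lineage markers, and were separated by the integrin CD49f, high for basal and low for luminal cells. There were 2 libraries of each group, and the labels do not say whether they came from separate animals, so the p-values measure the spread between these libraries, which may be technical.

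The cluster is known from sensory organs, where it is high in hair cells of the inner ear, photoreceptors and olfactory epithelium. Changes in the seed of miR-96, the stretch near its 5′ end that pairs with target mRNAs, cause hearing loss in mice and in humans. In human prostate cells the 3 miRNAs are known to lower zinc uptake by repressing zinc transporters, and miR-96 and miR-182 are known to repress the transcription factors FOXO1 and FOXO3. The 3 hairpins are processed from one primary transcript.

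The RefSeq hairpins show where the listed reads fall. On GRCm38 the cluster lies on the minus strand of chromosome 6, with Mir183 from 30169668 to 30169737, Mir96 from 30169446 to 30169551 and Mir182 from 30165918 to 30165992. The hairpins of Mir183 and Mir96 stand 116 bases apart, and 3453 bases separate Mir96 from Mir182. In GENCODE M21 none of the 3 hairpins overlaps an exon or intron of another gene. The nearest annotated genes are Rncr4, a noncoding RNA of the opposite strand that is known from the retina and lies 3156 bases away, and Nrf1, which codes for a transcription factor and lies 12460 bases away. The hairpins are given 5′ to 3′, with the arms that had listed reads in capitals.
Mir183: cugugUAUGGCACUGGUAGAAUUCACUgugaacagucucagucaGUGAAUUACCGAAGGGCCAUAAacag
Mir96: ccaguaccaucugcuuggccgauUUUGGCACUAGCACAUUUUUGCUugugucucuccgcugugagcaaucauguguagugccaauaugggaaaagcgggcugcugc
Mir182: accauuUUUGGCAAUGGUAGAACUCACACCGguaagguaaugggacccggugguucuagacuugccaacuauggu

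The mature arms with reads are shown with the seed, bases 2 to 8, in capitals. Between the 5p arms the seeds are alike, with 5 or 6 of 7 bases equal in each pair.
miR-183-5p: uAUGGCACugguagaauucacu
miR-96-5p: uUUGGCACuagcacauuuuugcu
miR-182-5p: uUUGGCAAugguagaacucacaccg
miR-183-3p: gUGAAUUAccgaagggccauaa
Counted from 1 at the 5′ end, miR-183-5p differs from miR-96-5p within bases 1 to 8 by A2U, and miR-96-5p differs from miR-182-5p by C8A. miR-183-5p and miR-182-5p differ by both substitutions there, but are the most alike pair over the whole arm, with 18 of 22 aligned bases equal. The longest run shared by any pair of the 5p arms is 8 bases. No other mature miRNA of the RefSeq table carries the seed of miR-183-5p, miR-182-5p or miR-183-3p, and the single miRNA with the seed of miR-96-5p, miR-1271-5p, had no listed read.

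**Figure D1:**
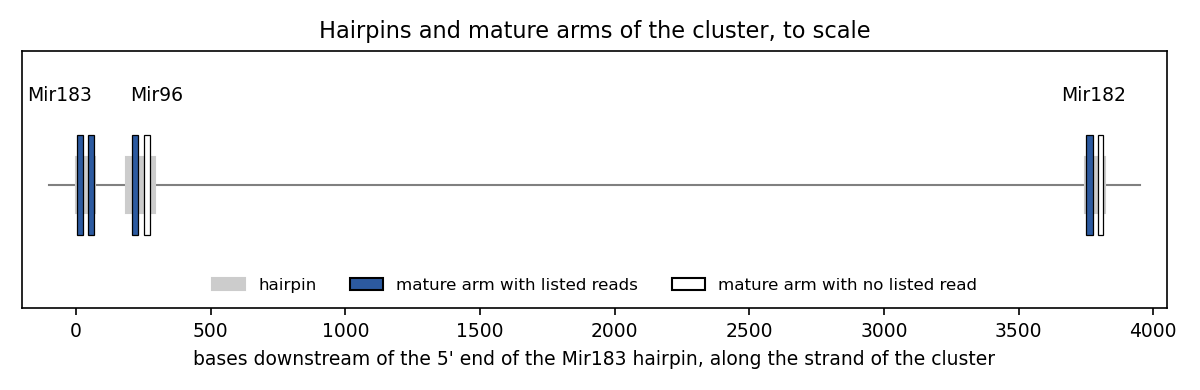
Map of the 3 hairpins (grey) and their mature arms, to scale, with distance in bases from the 5′ end of the Mir183 hairpin on the x axis. Filled boxes are arms with listed reads and open boxes are arms with none; Mir183 and Mir96 stand 116 bases apart, and Mir182 lies 3453 bases beyond Mir96.

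miR-96-5p had the most reads of the cluster in every library. Its reads numbered 2626 in basal replicate 1, 2962 in basal replicate 2, 1180 in luminal replicate 1 and 1119 in luminal replicate 2, and replicate 1 is given first in all pairs of values. By reads it ranked 58th, 61st, 63rd and 56th among the miRNAs of these libraries, so its place in the order hardly differed between the cell types. miR-182-5p followed with 2339 and 2451 reads in the basal libraries and 533 and 949 in the luminal libraries. It ranked 61st, 66th, 84th and 61st, and luminal replicate 1 was the library where it stood lowest. miR-183-5p had 148 and 202 reads in basal and 59 and 101 in luminal libraries, and its ranks were 156, 157, 180 and 146. miR-183-3p, the opposite arm of the same hairpin, was the rarest member, with 69 and 61 reads in basal and 23 and 37 in luminal libraries. Read numbers of different miRNAs also depend on how well each is ligated and amplified, and that part was not tested.

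The order of the 4 members was the same in every library, but the steps were unequal. miR-96-5p had 17.7 and 14.7 times the reads of miR-183-5p in the basal libraries and 20.0 and 11.1 times in the luminal libraries. The neighbours miR-96-5p and miR-182-5p were much closer, with ratios of 1.12 and 1.21 in basal and 2.21 and 1.18 in luminal libraries. The hairpins with the most and the fewest reads are thus the pair that stand 116 bases apart, and the distant Mir182 gave nearly as many reads as Mir96 in 3 of the 4 libraries.

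Basal and luminal libraries were then compared at the level of each member. The listed reads numbered from 2631926 to 7132365 per library, of which 1501898 to 3278294 were miRNA reads, and levels were scaled to 1000000 miRNA reads after adjustment by TMM (trimmed mean of M values), here called RPM. miR-96-5p stood at 981 and 882 RPM in the basal libraries and at 902 and 909 RPM in the luminal libraries. Both luminal values lay between the basal values. Its log2 fold change, basal over luminal, came to 0.04 (SE 0.57) with a 95% interval from -1.17 to 1.25 (edgeR quasi-likelihood test, adjusted p = 0.983), and without basal replicate 1 it was -0.06. These data therefore leave room for a difference of either direction up to the bounds of that interval.

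miR-182-5p stood at 874 and 730 RPM in the basal libraries and at 408 and 771 RPM in the luminal libraries. Luminal replicate 1 was low and luminal replicate 2 lay within the basal range. Its fitted log2 difference came to 0.44 (SE 0.60) with a 95% interval from -0.83 to 1.72 (edgeR, adjusted p = 0.738). It was 0.12 without luminal replicate 1 and 1.03 without luminal replicate 2, so the size of this value rests on which luminal library is used.

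The arms of miR-183 were low in both cell types. miR-183-5p stood at 55.3 and 60.1 RPM in basal and at 45.1 and 82.1 RPM in luminal libraries, so the basal values lay within the luminal range. Its fitted log2 difference came to -0.14 (SE 0.89) with an interval from -2.02 to 1.74 (edgeR, adjusted p = 0.980), and 0.40 without luminal replicate 2. miR-183-3p stood at 25.8 and 18.2 RPM in basal and at 17.6 and 30.1 RPM in luminal libraries, again with basal values inside the luminal range. Its fitted log2 difference came to -0.12 (SE 1.16; edgeR, adjusted p = 0.983), 0.13 without basal replicate 2 and 0.38 without luminal replicate 2. This arm had the lowest counts of the 4 and the widest interval, from -2.55 to 2.32.

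**Figure D2:**
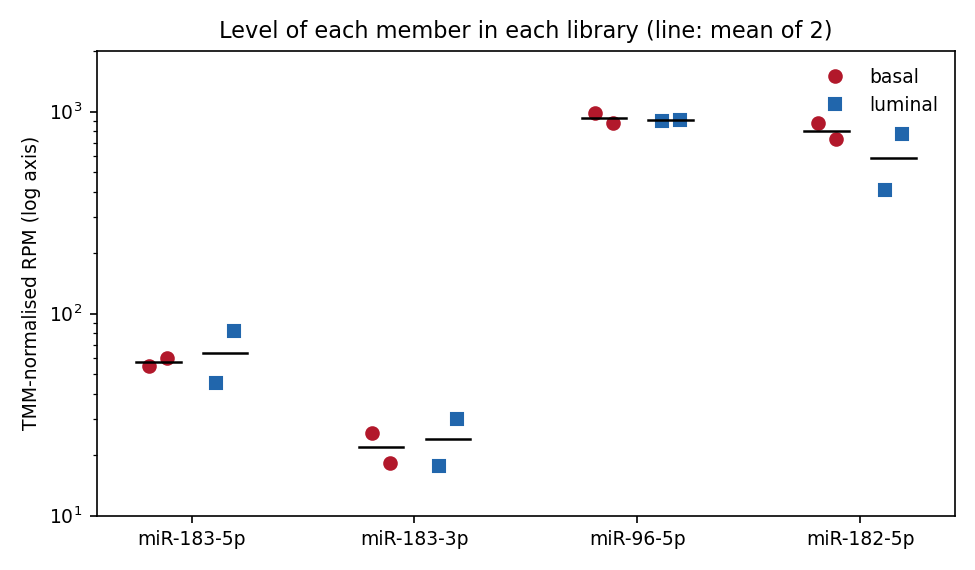
Level of each member in each library, in TMM-normalised RPM on a log axis; circles are basal and squares luminal libraries, and lines are means of 2. miR-96-5p and miR-182-5p lie far above the arms of miR-183, and the groups overlap for all 4 members.

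None of the 4 members was called at an adjusted p of 0.05 by edgeR, and 0 of 4 had an unadjusted p under 0.05. Over all 345 tested miRNAs, edgeR called 4.35%, and 15.9% had an unadjusted p under 0.05. DESeq2 also called 0 of the 4, where it called 10.9% of the 304 miRNAs to which it gave an adjusted p. All 4 members passed the filter on low counts. The groups overlapped for all 4, whereas the libraries of the groups did not overlap for 51.6% of the tested miRNAs. By unadjusted p, 94.5% of the tested miRNAs had a smaller value than miR-96-5p and 63.8% had a smaller value than miR-182-5p. A p that misses the threshold does not show that the levels were equal.

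The direction of the arms of miR-183 depended on how the libraries were scaled, while miR-96-5p and miR-182-5p stayed above 0 under all 5 scalings. The median log2 fold change of all tested miRNAs was -0.01 with TMM factors, and it shifted by 0.32 with upper-quartile factors, by 0.57 with library totals alone and by 1.99 with scaling to the Cali reads. Cali is the name of 3 sequences in the table that are no miRNAs and whose origin the labels do not state. Under these 3 scalings miR-183-5p stood at 0.15, 0.44 and 1.83, so its sign turned, and miR-183-3p turned likewise at 0.20, 0.51 and 2.03. Relative to the median of all miRNAs, the members moved far less. miR-182-5p stood 0.45 above that median with TMM and between 0.42 and 0.54 above it with the other 4 scalings. miR-96-5p stood 0.05 above it with TMM and 0.03 to 0.13 above it otherwise. miR-183-5p stood below it throughout, from -0.17 to -0.13, and miR-183-3p from -0.14 to 0.04.

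**Figure D3:**
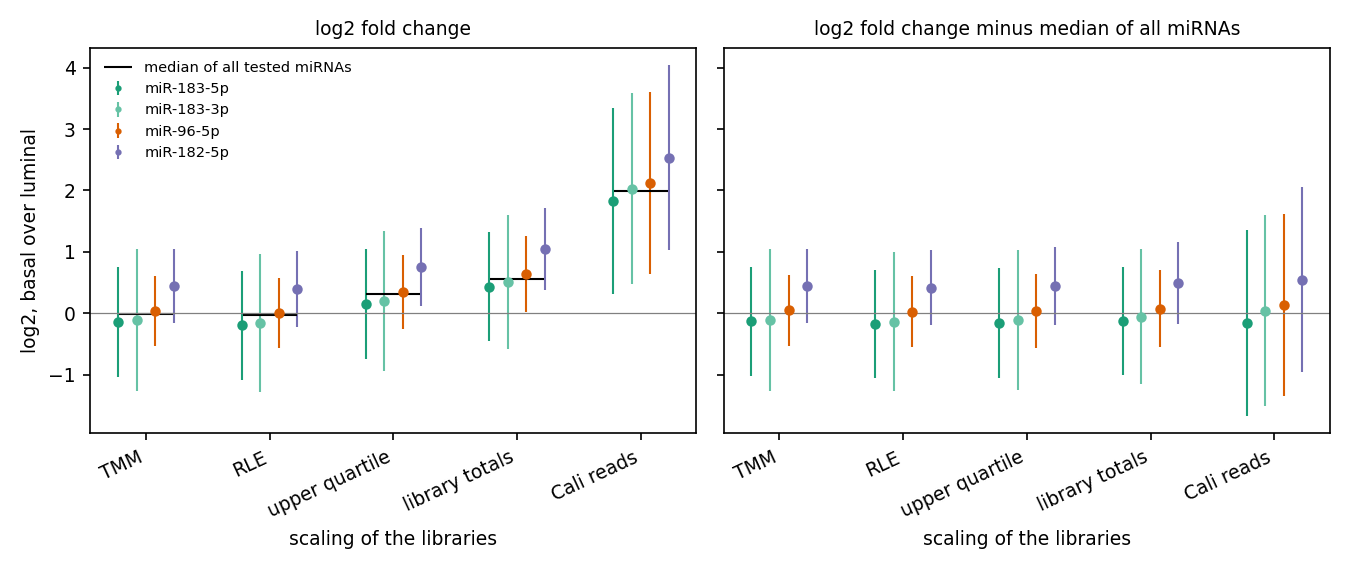
Log2 fold change, basal over luminal, of the 4 members under 5 scalings of the libraries (left), and the same after subtraction of the median of all tested miRNAs (right); bars are standard errors of the fold change and black ticks on the left the median. The values rise with the median, which is -0.01 with TMM and 1.99 with Cali reads, and after subtraction miR-182-5p lies between 0.42 and 0.54.

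Summed over its members, the cluster stood at 1936 and 1690 RPM in the basal and at 1373 and 1793 RPM in the luminal libraries. The basal mean was 1813 ± 174 RPM and the luminal mean 1583 ± 297 (SD over 2 libraries), and luminal replicate 2 lay between the basal libraries. As a plain share of all miRNA reads, the cluster took 0.279% (95% Clopper-Pearson interval 0.272 to 0.287) and 0.173% (0.169 to 0.178) in basal libraries. It took 0.113% (0.108 to 0.119) and 0.147% (0.141 to 0.153) in luminal libraries, so both basal shares were above both luminal shares. That order turned when the total was taken without one abundant miRNA. In the basal libraries miR-200c-3p accounted for 22.3% and 46.9% of miRNA reads, and in the luminal libraries for 68.5% and 71.6%. Once that miRNA was removed from the total, the cluster took 0.359% (0.350 to 0.369) and 0.326% (0.318 to 0.335) of the remaining reads in basal libraries. In luminal libraries it then took 0.360% (0.344 to 0.377) and 0.518% (0.497 to 0.540), so both luminal shares were above both basal shares, though basal replicate 1 and luminal replicate 1 differed by less than their counting error. With TMM factors computed anew on the remaining reads, the summed cluster stood at 4396 and 3774 reads per 1000000 of them in basal and at 3111 and 4238 in luminal libraries, where the groups overlapped and the mean was higher in basal, by 0.15 on the log2 scale. These intervals, and those that follow, cover counting error only.

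The members of the miR-200 family other than miR-200c offer a scale within the epithelial miRNAs, chosen here after the values were seen. For each 100 reads of miR-200a-3p, miR-200b-3p, miR-141-3p and miR-429-3p together, the cluster had 5.72 and 8.08 reads in basal and 4.32 and 4.43 reads in luminal libraries. Both basal libraries were above both luminal libraries (exact 2-sided permutation test, p = 0.333, Benjamini-Hochberg adjusted p = 0.867 over the 13 shares and ratios compared in this way). With 2 libraries against 2 this test cannot give a p below 0.333. The ratio also moves with its denominator, in which miR-200b-3p had the most reads in every library. The edgeR log2 fold change, basal over luminal, was -0.62 for miR-200b-3p, -0.38 for miR-141-3p, -0.17 for miR-429-3p and 0.33 for miR-200a-3p, with none of them called. The miR-200 arms are known to repress Zeb1 and Zeb2, drivers of the mesenchymal state.

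The shares of the 3 hairpins within the cluster do not depend on the scaling between libraries. miR-96 made up 50.7% and 52.2% of the cluster reads in the basal and 65.7% and 50.7% in the luminal libraries. miR-182 made up 45.1% and 43.2% in basal and 29.7% and 43.0% in luminal libraries. For both hairpins luminal replicate 1 stood apart from the other 3 libraries. miR-183 made up 4.19% (3.66 to 4.77) and 4.63% (4.10 to 5.21) in basal and 4.57% (3.65 to 5.64) and 6.26% (5.28 to 7.35) in luminal libraries, so for this hairpin luminal replicate 2 was the highest, and its interval lay above those of both basal libraries and overlapped that of luminal replicate 1. Of the reads of miR-96-5p and miR-182-5p combined, miR-96-5p took 68.9% (66.6 to 71.1) in luminal replicate 1, against 52.9% (51.5 to 54.3), 54.7% (53.4 to 56.1) and 54.1% (51.9 to 56.3) in basal replicates 1 and 2 and luminal replicate 2. The interval of luminal replicate 1 touches none of the others.

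Between the groups, the miR-96 share was 51.4% ± 1.07 for basal and 58.2% ± 10.6 for luminal libraries (SD over 2 libraries, exact 2-sided permutation test, p = 0.667, adjusted p = 0.867). Without luminal replicate 1 the difference was 0.70 percentage points in the other direction. The miR-182 share was 44.2% ± 1.38 for basal and 36.4% ± 9.42 for luminal libraries (n = 2 each, exact permutation p = 0.333, adjusted p = 0.867), and the difference fell to 1.14 points without luminal replicate 1. miR-183 took the small remainder, 4.41% ± 0.315 for basal and 5.41% ± 1.19 for luminal libraries (n = 2 each, exact permutation p = 0.667, adjusted p = 0.867). The ratio of miR-182-5p to miR-183-5p did not overlap between the groups, with 15.8 and 12.1 reads of miR-182-5p per read of miR-183-5p in basal and 9.03 and 9.40 in luminal libraries (exact permutation p = 0.333, adjusted p = 0.867). Its denominators in luminal libraries were only 59 and 101 reads. Of the 13 shares and ratios, the miR-182 share and the ratio to the miR-200 arms also did not overlap, and all others did. Among 5p arms alone the miR-182 share overlapped, at 43.7% in basal replicate 2 and 43.8% in luminal replicate 2.

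**Figure D4:**
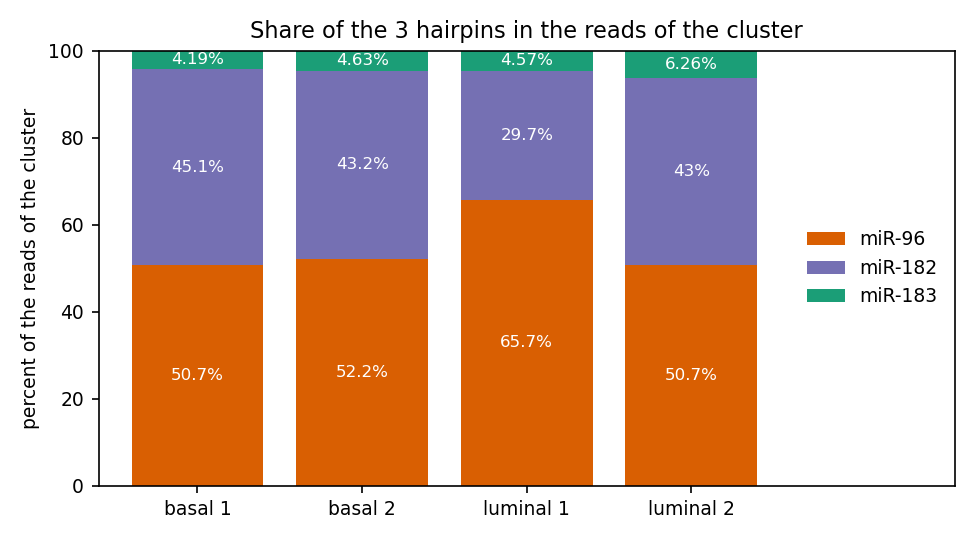
Share of each hairpin in the reads of the cluster, in percent, for each library. miR-96 takes 50.7% to 52.2% in 3 libraries and 65.7% in luminal replicate 1, where miR-182 takes 29.7%.

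The hairpins differed in the listed reads of their arms. For miR-183 the 5p arm took 68.2% (95% interval 61.6 to 74.3) and 76.8% (71.2 to 81.8) of the hairpin's reads in the basal libraries. In the luminal libraries it took 72.0% (60.9 to 81.3) and 73.2% (65.0 to 80.4). All 4 intervals overlap, and the group means were 72.5% ± 6.08 for basal and 72.6% ± 0.875 for luminal libraries (SD over 2 libraries, exact permutation test, p = 1). Over the pooled libraries 27.1% of the miR-183 reads lay on the 3p arm. Among the 142 stems with both arms listed and at least 100 reads, the median share of the minor arm was 4.14%, and 21 had a larger minor share than miR-183.

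miR-96 and miR-182 had reads on the 5p arm alone. miR-96-3p and miR-182-3p are in the RefSeq table but had no listed read in any library. Whether the miRNA database behind the counts held these arms is not stated. The limits below hold only if it did, and they rest on a chosen floor. Against a floor of 3 reads per library, miR-96-5p was at least 875-fold and 987-fold higher than its 3p arm in the basal libraries, and at least 393-fold and 373-fold higher in the luminal libraries. The 3p arm of miR-182 could then hold at most 0.128% and 0.122% of the hairpin's reads in basal and 0.560% and 0.315% in luminal libraries. The 3p share of miR-183 lay far above these limits in every library.

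**Figure D5:**
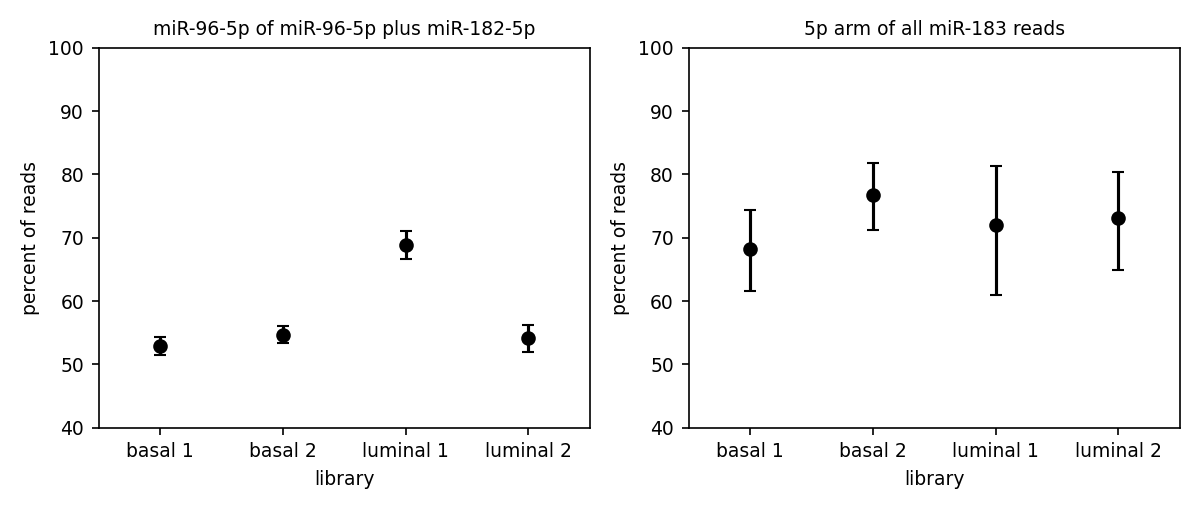
Percent of reads in each library, with 95% Clopper-Pearson intervals, for miR-96-5p among the reads of miR-96-5p and miR-182-5p (left) and for the 5p arm among all miR-183 reads (right); the y axis starts at 40%. On the left luminal replicate 1 stands at 68.9% and the others between 52.9% and 54.7%; on the right all intervals overlap.

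No 5p arm had another member of the cluster as its nearest neighbour across the libraries, and the neighbours of miR-183-3p were not computed. Likeness was measured as the root mean square difference of log2 RPM, centred on its mean, over the 4 libraries, among 173 other miRNAs with a mean of at least 50 RPM. For miR-182-5p the nearest was miR-30c-5p, at a difference of 0.07, followed by miR-324-3p at 0.12 and miR-652-3p at 0.20. Both miR-182-5p and miR-30c-5p were lowest in luminal replicate 1, at -0.71 and -0.83 from their means on the log2 scale, and highest in basal replicate 1. miR-96-5p stood at 0.40 from miR-182-5p, and would have ranked 19th among the miRNAs nearest to miR-182-5p. miR-183-3p at 0.31 would have ranked 10th there and miR-183-5p at 0.32 would have ranked 12th. For miR-96-5p, whose level varied least of the 4 members, the nearest were miR-30b-5p at 0.07, miR-99a-5p at 0.11 and miR-324-5p at 0.12.

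For miR-183-5p the nearest were miR-30d-5p at 0.10, miR-5099 at 0.17 and miR-328-3p at 0.19, and the opposite arm miR-183-3p followed at 0.22. miR-96-5p and miR-182-5p, both at 0.32, would each have ranked 10th for miR-183-5p. The arms of miR-183 were both lowest in a luminal library and highest in the other, at -0.39 and 0.46 for the 5p arm and -0.33 and 0.41 for the 3p arm in luminal replicates 1 and 2. The summed cluster was most like miR-324-3p (0.12), let-7d-3p (0.15), miR-484 (0.15), miR-30b-5p (0.19) and miR-324-5p (0.21), where the median of all 173 was 0.70. None of the miRNAs named as nearest was called between basal and luminal cells, where edgeR called 4.35% of all tested miRNAs. They were picked for likeness to members that were not called, so the lack of calls follows from that choice. With 4 libraries many miRNAs share a profile of this kind.

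The label of the groups was checked on miR-205-5p, a miRNA of basal epithelium, which was higher in basal libraries, at 51956 and 80905 RPM against 6686 and 4605 RPM (edgeR log2 fold change 3.56, adjusted p = 0.0128). An epithelial list (the miR-200 family, miR-205, miR-203, miR-375, miR-31 and miR-184) had 14 tested members. Of these 1 was called higher in basal cells, miR-205-5p itself, and 1 in luminal cells, miR-375-3p. Over all tested miRNAs 0.58% and 3.77% were called in these directions. The median log2 fold change of the list was -0.50 beside -0.01 over all miRNAs. A sensory and neural list was of interest because the cluster is known from such cells. Of its 10 tested members 2 were higher in luminal cells and none in basal cells, with a median of -1.89. These were the neural miR-9-5p and the secretory and neuroendocrine miR-375-3p, which is on both lists and is the same call as above. miR-9-5p had 3 and 24 reads in basal and 338 and 91 in luminal libraries, a log2 fold change of -5.29 (edgeR, adjusted p = 0.0128) beside values from -0.14 to 0.44 for the 4 members of the cluster. The list ranged from that value to 4.22, and miR-204-5p, its most abundant member in basal libraries, had 2700 and 5600 reads in basal and 1226 and 841 in luminal libraries (log2 fold change 0.72, edgeR adjusted p = 0.562).

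Markers of other cells also differed between the libraries. Of 2 listed endothelial arms, both of miR-126a, the sum was 55057 and 34556 RPM in basal and 10579 and 966 RPM in luminal replicates 1 and 2, and neither arm was called (edgeR adjusted p = 0.0651 and 0.127). The 4 smooth muscle arms, of miR-143 and miR-145a, summed to 1060 and 1983 RPM in basal and to 9560 and 12498 RPM in luminal libraries. Of these arms 2 were called higher in luminal cells, where 3.77% of all tested miRNAs were called in that direction. The 5 fibroblast arms summed to between 579 and 631 RPM in basal and between 1144 and 1201 RPM in luminal libraries, with none called. Within the luminal pair the smooth muscle arms went different ways. In luminal replicates 1 and 2 miR-145a-5p stood at 4527 and 9687 RPM, and miR-143-3p at 4946 and 2687 RPM. The rarer miR-145a-3p and miR-143-5p were higher in replicate 2, like miR-145a-5p. The 5 leukocyte arms summed to 3490.5 and 6470 RPM in basal and to 2960 and 1909 RPM in luminal libraries. The 3 erythroid arms summed to 171 and 3046 RPM in basal and to 207 and 646 RPM in luminal libraries, so the basal replicates differed widely. None of the leukocyte arms was called, nor was miR-451a, the single erythroid arm that passed the filter on low counts. The leukocyte arms went different ways in luminal replicate 2. There miR-150-5p was lowest, at 1180 RPM, and the rare miR-150-3p was at 0, as was the rare erythroid arm miR-144-5p. In contrast miR-223-3p, miR-142-3p and miR-142-5p were highest in that library, at 332, 208 and 189 RPM. The part of these cells in the values of the cluster was not tested, and fewer cells of a type cannot be told apart here from less RNA per cell.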

How the data were processed

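Small RNA libraries of 2 basal and 2 luminal samples were used. Values are raw read counts per name, deposited by the authors as 1 list for each library, per the file headers. The table's title speaks of BLAST; its version, the miRNA database, trimming and the handling of reads with several matches are not stated in the labels or headers. A name not listed for a library was taken as 0 reads. Of 820 names, 4 are no miRNAs and stayed out of totals and tests, and each list's unnamed last value, the sum of the list, was left out.

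edgeR 4.0.16 (R 4.3.3) was run on the counts with TMM factors, filterByExpr at its minimum of 10 reads and total of 15, cell type as the only term and Benjamini-Hochberg adjustment over 345 miRNAs at 0.05. The standard error is the fold change divided by the square root of F. The same fit was run on simulated data, which had less spread than these libraries and larger changes than the members. That run therefore does not show how well the fit finds small changes here. Shares were compared by exact permutation over libraries, with Clopper-Pearson intervals from scipy 1.17.1. Profiles were compared on log2 RPM (prior count 2). DESeq2 1.42.0, other scalings and filters, a replicate term and leaving out each library were tried. Sequences are from RefSeq on GRCm38.p6, where all 4 members matched by name, and neighbouring genes from GENCODE M21. Named miRNAs were the members, the 5 nearest to the summed cluster and the 3 nearest to each main arm, the most abundant list members and miR-205-5p. The members and lists were chosen with earlier results of these data known.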

Additional observations from a re-analysis of the deposited data

How the results depend on the processing

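None of the 4 members passed the threshold in any of the 13 alternatives to the edgeR fit (lowest adjusted p 0.291, for miR-182-5p with Cali reads). miR-182-5p stayed above 0 in all 13, from 0.12 to 2.53 on the log2 scale. Signs turned for miR-183-5p with upper-quartile factors (0.15), library totals alone (0.44) and Cali reads (1.83), and for miR-183-3p with these (0.20, 0.51 and 2.03) and with no filter (0.025). Without 1 library each, miR-183-5p ranged from -0.45 to 0.40, miR-183-3p from -0.42 to 0.38, miR-96-5p from -0.057 to 0.13 and miR-182-5p from 0.12 to 1.03. The log2 ratio of the summed level, 0.20 as reported, was 0.50 with upper-quartile factors, 0.80 with library totals alone, 2.28 with Cali reads and 0.66 relative to the 4 other miR-200 arms, a scale chosen after seeing the data. It ranged from 0.072 to 0.45 without 1 library. The share of miR-96 (basal minus luminal) ranged from -14.3 to 0.70 percentage points without 1 library, that of miR-182 from 1.14 to 14.5, that of miR-183 from -1.85 to -0.16, and the 5p share of miR-183 from -4.37 to 4.24. All 5 miRNAs nearest to the summed cluster were kept with a prior count of 0.5, and 4 with a minimum mean of 10 RPM. Over all miRNAs the 15 calls (2 basal, 13 luminal) became 33 in DESeq2 (8 and 25), 2 with library totals alone (1 and 1), 3 with Cali reads (3 and 0), 5 with a minimum mean of 10 RPM (1 and 4), 13 with upper-quartile factors (3 and 10), 21 with no filter (7 and 14), and 9 to 61 without 1 library. The labels give no pairing of luminal with basal samples beyond equal replicate numbers. With the replicate block there were 23 calls (7 and 16), and the replicate differences of the groups correlated at 0.15 across miRNAs. Where these values moved, the cause was not tested. miR-183-3p had from 23 to 69 reads per library.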
